A study of Mus musculus with 96 samples.

Results

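The 7 genes described here are Tdrd12, Mael, Rnf17, Tex19.1, Morc1, Dazl and Sycp3, a panel of germline genes that DNA methylation is known to silence outside germ cells, out of 36205 gene rows in the deposited count table. Their symbols were matched to Ensembl identifiers, and each had 1 row. The values are read counts per gene in single E14 cells, a widely used wild-type mouse embryonic stem cell line derived from the blastocyst. The labels give it the C57BL/6 background, which differs from the one usually described for this line and was not checked here. The 61 cells with values came from serum/LIF culture, that is serum plus leukaemia inhibitory factor, and messenger RNA was parted from the DNA of the same cell by G&T-seq so that methylation could be read from that DNA. The series also lists 16 wells of cells in 2i medium and 4 wells without a cell, which were not analysed here, and 76 serum/LIF wells in all. The study asked how differences between cells in transcription relate to differences in DNA methylation. No methylation value was used here, so silencing itself was not measured.

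In the mouse, these genes carry CpG-containing promoters that become methylated as the embryo leaves the blastocyst stage, and their products work in germ cells. Several belong to the piRNA pathway, in which small RNAs bound by PIWI proteins silence transposons in the male germline. Serum/LIF cultures are known to mix cells with different degrees of naive pluripotency, the state of the inner cell mass, and genome methylation is known to be lower in the naive state.

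RefSeq promoter windows on GRCm38.p6, from 250 bases before to 50 after the start, were found for 5 of the 7 genes, namely Tdrd12, Mael, Tex19.1, Dazl and Sycp3. They are shown because CpG sites are where the mark named for this panel can sit. The windows held 9 CpG sites in Tdrd12, 24 in Mael, 16 in Tex19.1, 28 in Dazl and 15 in Sycp3, against a median of 7 over 32841 windows. The ratio of observed to expected CpG was 0.341 in Tdrd12, 0.780 in Mael, 0.575 in Tex19.1, 0.795 in Dazl and 0.666 in Sycp3, against a median of 0.384. In this window Tdrd12 lay below the median ratio and 53.8% of windows had at least its value, whereas 21.3% of windows had at least that of Dazl. Tdrd12 has a second window with 11 sites and a ratio of 0.408, which lies above the median, and the one whose start lies nearest to the annotated gene start is used. In the windows of the gene richest in CpG, of a piRNA gene with an E-box, and of 2 genes that varied together between cells, CpG sites are in capitals.
Dazl, chr17:50293571-50293870, minus strand: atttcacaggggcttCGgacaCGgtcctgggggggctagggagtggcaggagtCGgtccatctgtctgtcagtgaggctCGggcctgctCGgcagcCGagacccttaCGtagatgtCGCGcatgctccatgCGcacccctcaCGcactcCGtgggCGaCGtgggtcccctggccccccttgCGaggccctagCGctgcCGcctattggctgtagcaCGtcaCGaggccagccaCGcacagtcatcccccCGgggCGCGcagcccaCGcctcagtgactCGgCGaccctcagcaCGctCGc
Mael, chr1:166238695-166238994, minus strand: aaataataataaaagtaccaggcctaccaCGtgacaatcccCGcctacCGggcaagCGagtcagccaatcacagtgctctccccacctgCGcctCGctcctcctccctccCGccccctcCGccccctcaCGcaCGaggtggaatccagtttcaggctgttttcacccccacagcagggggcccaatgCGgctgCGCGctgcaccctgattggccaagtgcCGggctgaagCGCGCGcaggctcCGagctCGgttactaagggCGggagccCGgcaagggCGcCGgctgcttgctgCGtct
Tex19.1, chr11:121145893-121146192, plus strand: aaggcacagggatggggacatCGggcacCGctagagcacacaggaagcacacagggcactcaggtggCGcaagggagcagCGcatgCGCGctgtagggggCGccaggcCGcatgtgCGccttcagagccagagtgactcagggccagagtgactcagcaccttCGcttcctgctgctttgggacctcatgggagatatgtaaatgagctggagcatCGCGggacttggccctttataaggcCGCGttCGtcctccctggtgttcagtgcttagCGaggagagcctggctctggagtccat
Tdrd12, chr7:35537695-35537994, minus strand: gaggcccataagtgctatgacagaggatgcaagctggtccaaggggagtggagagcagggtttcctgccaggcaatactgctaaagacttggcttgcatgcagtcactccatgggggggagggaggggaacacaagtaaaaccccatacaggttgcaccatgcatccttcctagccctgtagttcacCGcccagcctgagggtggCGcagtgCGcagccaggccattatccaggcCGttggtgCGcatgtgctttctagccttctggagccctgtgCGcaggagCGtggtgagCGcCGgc

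Germline promoters silenced in embryonic stem cells are known for E-box and E2F-type motifs, bound by MAX with MGA and by E2F6. The E-box CACGTG, which reads the same on both strands and holds a CpG, occurred once in the window of Mael (223 bases before the start) and at 2 places in that of Sycp3 (64 and 43 bases before it), against 7.15% of all windows with a match. The E2F-type motif GCGGGA, searched on both strands and also holding a CpG, occurred in the windows of Mael, Tex19.1 and Sycp3, against 19.98% of all windows. The longer form TCACGTGA, which contains the E-box, occurred in none of the 5 windows and in 0.974% of all windows. No match was found in the windows of Dazl and Tdrd12, which says only that these letters are not there.

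**Figure D1:**
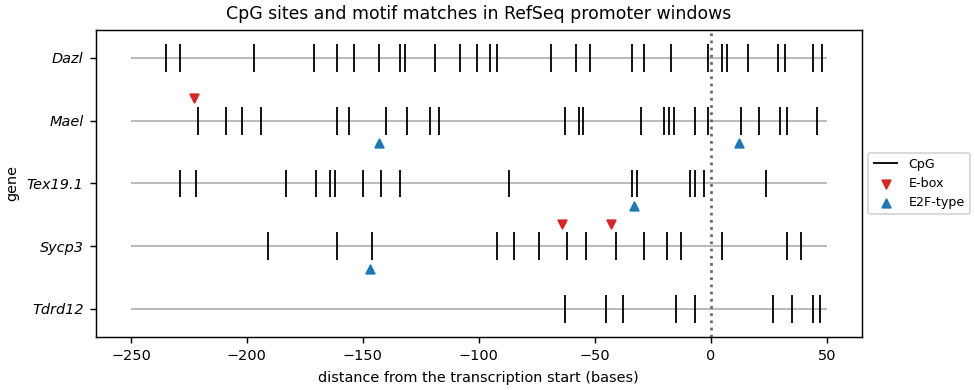
CpG sites (black ticks), E-box matches (red) and E2F-type matches (blue) by distance in bases from the start, in the RefSeq windows of 5 germline genes. Dazl has 28 CpG sites spread over its window, while the first of the 9 in Tdrd12 lies 63 bases before the start.

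Each cell had between 2417702 and 6787261 counts, with a median of 4244480, and between 5317 and 10032 genes detected. The pluripotency factor gene Pou5f1 had counts in 61 cells, with a median of 1149 CPM, the count scaled to library size. Of 5 markers each of primitive endoderm and of a state like the 2-cell embryo, none was in more than 5 cells, and Zscan4d, Tcstv1 and Tcstv3 of the 2-cell list were at 0; of 5 feeder fibroblast markers the most widely found was Col1a1, in 7 cells, and Postn was in 0. Summed over each list, the range was 0 to 208 CPM for primitive endoderm, 0 to 4.84 CPM for the 2-cell state and 0 to 223 CPM for fibroblasts, and their part in the results was not tested. The labels name no separate cultures and cells are not replicates of a condition, so every relation is a description of these 61 cells and has no p-value. The intervals given for shares of cells treat the cells as independent draws from the culture and cover that sampling only. Reads carry no molecular identifiers, and the 3 counts that a count of 0 allows correspond to 0.447 to 1.24 CPM depending on the cell. That range covers the sampling of reads only, and transcripts lost before sequencing are outside it.

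On GRCm38 the genes lie on different chromosomes: Tdrd12 at chr7:35469098-35537745 and Mael at chr1:166201201-166238747 (both minus strand), Rnf17 at chr14:56402581-56525032, Tex19.1 at chr11:121146143-121148319 and Morc1 at chr16:48431237-48630900 (plus strand). Dazl is at chr17:50279395-50293636, on the minus strand. Counts were taken per gene, so no exon or isoform is told apart.

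All 7 genes were found in some cells and were at 0 in many, and where they were found their levels spread over a wide range. Among the piRNA pathway genes, Tdrd12, a tudor-domain helicase needed for piRNA production, was found in 19 of 61 cells, 31.1% (95% exact Clopper-Pearson interval 19.9% to 44.3%). Its lowest and median cells were at 0 CPM and its highest, in well H03, at 402.3 CPM from 2456 counts. The 5 highest cells (H03, B09, C07, F07 and C02) held 73% of its summed CPM.

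Mael, the gene of a germ granule protein that acts in transposon silencing, was found in 18 cells, 29.5% (18.5% to 42.6%). Its lowest and median cells were also at 0 CPM and its highest, A09, was at 293.3 CPM. The cells highest in Mael were A09, C10, F01, H02 and B04.

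Rnf17, which encodes a RING finger and tudor protein of germ cell granules, was found in 39 cells, 63.9% (50.6% to 75.8%), and had 10 or more counts in 32. Its lowest cell was at 0 CPM, its median at 5.02 CPM and its highest, B10, at 1257 CPM from 6596 counts. It lies on chromosome 14, whose summed counts without Rnf17 were under 0.75 of the median cell in 5 cells (B05, E01, F01, H03 and H10), and Rnf17 was found in 4 of these.

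Tex19.1, which restrains retrotransposons in mouse germ cells, placenta and embryonic stem cells, was found in 22 cells, 36.1% (24.2% to 49.4%), with a lowest and a median of 0 CPM and a highest of 502.9 CPM in D05. Its paralogue Tex19.2 was found in 1 cell, also D05, and the split of reads between the copies there is uncertain. Morc1, an ATPase gene of transposon silencing in male germ cells, was found in 19 cells, 31.1% (19.9% to 44.3%), with a lowest and a median of 0 CPM and a highest of 780.9 CPM in C02. In the 19 cells that had Morc1 counts the median was 89.1 CPM, and 14 cells had 10 or more counts. In D01, E05, F06, F07 and G09, all below the gap described later, Morc1 rested on 1 or 2 counts.

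Dazl, which encodes an RNA-binding regulator of translation in germ cells, was the rarest. It was found in 9 cells, 14.8% (6.98% to 26.2%), with a lowest and a median of 0 CPM, a highest of 159.0 CPM in C05 and 10 or more counts in 6 cells. The cell in C05 alone held 47.5% of its summed CPM. Dazl therefore did not reach 10 counts in 10 cells, a limit that the other 6 genes and 10868 genes in all passed. It is left out of the panel score used below, the mean standardised level of the other 6 genes.

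Sycp3, which encodes a lateral element protein of the synaptonemal complex that holds paired chromosomes in meiosis, was found in 38 cells, 62.3% (49% to 74.4%), and had 10 or more counts in 34. Its lowest cell was at 0 CPM, its median at 5.54 CPM and its highest, C09, at 403.3 CPM. Its summed level was the least concentrated of the 7, with 41.7% in its 5 highest cells, against 57.4% to 98.2% for the others.

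The Sycp3 values cannot be read as Sycp3 alone. The gene (chromosome 10, 88459569 to 88473236, plus strand) lies inside Chpt1 (88452745 to 88504073), a gene of phospholipid synthesis on the opposite strand, and 660 exon bases, 52.2% of the Sycp3 exon length, are shared. Whether the counting used strand is not given in the sources used here, and reads of the pair could be mixed. Of the 61 cells, 35 had counts of both, 3 of Sycp3 only, 3 of Chpt1 only and 20 of neither, and Spearman's rho between their levels was 0.88, also 0.88 in the 53 cells below the gap described later. The ratio of Sycp3 to Chpt1 counts had a median of 4.56 and ran from 0.0795 to 14. None of the other 6 genes shared exon bases with another annotated gene.

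**Figure D2:**
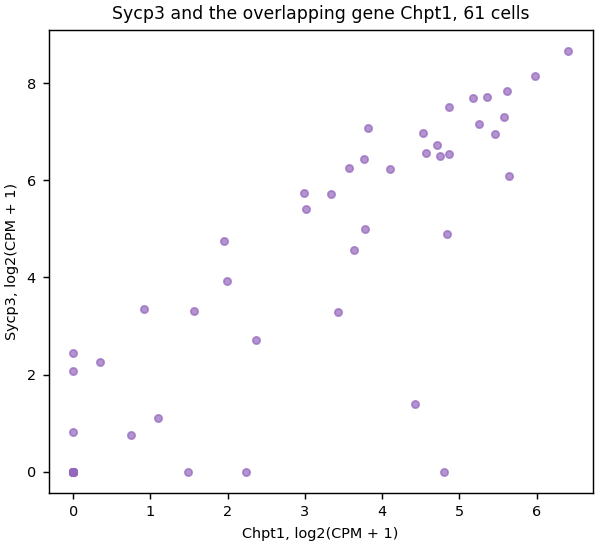
Level of Sycp3 against that of Chpt1, both as log2(CPM + 1), in 61 cells. The 35 cells with both lie along a rising band, and 20 cells are at 0 for both.

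Per kilobase of exon, the mean level was 41.4 CPM for Sycp3, 16.9 for Tex19.1, 16 for Mael, 14.3 for Rnf17, 12.1 for Morc1, 8.96 for Tdrd12 and 1.44 for Dazl, against 503.4 for Pou5f1. The SD over cells exceeded the mean of each of the 7 genes, both in CPM (38.9 ± 99.9 CPM for Tdrd12 and 52.4 ± 82.8 CPM for Sycp3, n = 61 cells). Whether neighbours in this order differ was not tested.

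**Figure D3:**
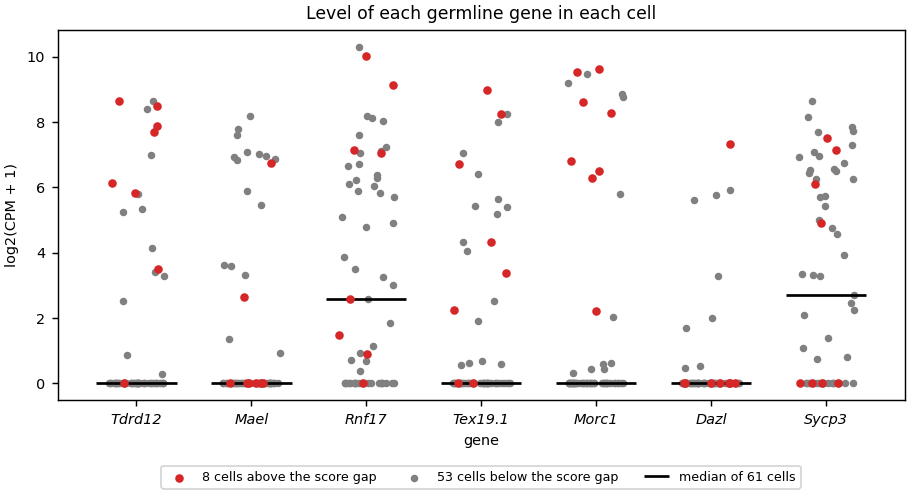
Level of each germline gene as log2(CPM + 1) in each of 61 cells (points; red, 8 cells above the gap in the naive score; grey, 53 cells below it), with the median over 61 cells as a bar. The median is at 0 for 5 genes and at 5.02 CPM for Rnf17 and 5.54 CPM for Sycp3.

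The genes were combined differently from cell to cell. Of the 61 cells, 8 had counts of 0 of the 7 genes, 13 of 1, 8 of 2, 10 of 3, 10 of 4, 8 of 5, 3 of 6 and 1 of all 7. The cells with 6 were B04, B10 and C05. The cell with all 7, E09, held Morc1 at 587.2, Rnf17 at 262.8, Tex19.1 at 84.1, Mael at 58.5, Dazl at 53.3, Sycp3 at 22.6 and Tdrd12 at 0.816 CPM. Its Tdrd12 level rests on 3 counts. It was also the highest cell for Dnmt3l, at 1876 CPM, and for Dnmt3b, at 2418 CPM. These encode a cofactor and an enzyme of new DNA methylation. The naive score of E09, described later, was -0.71 SD, but the genes in that score differed. Zfp42, a marker of naive cells, was at 2.72 CPM. Dppa5a, also in that score, was at 11294 CPM, the highest of 61 cells, against a median of 1115 CPM.

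Some pairs of genes were high in the same cells. Over the 21 pairs the median Spearman rho was 0.19, against 0.01 over all 59051278 pairs of tested genes, and 8 pairs reached 0.3, against 2.02% of all pairs. Dazl enters the 21 pairs but not that background, and among the 15 pairs of the other 6 genes 6 reached 0.3. The values of a cell share its library and depth.

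Tdrd12, Morc1 and Tex19.1 were related to each other. The Spearman coefficient was 0.61 for Tdrd12 with Morc1, 0.54 for Tex19.1 with Morc1 and 0.48 for Tdrd12 with Tex19.1. Of the 19 cells with Tdrd12 and the 19 with Morc1, 13 had both. In the 53 cells below the gap the 3 values were 0.41, 0.44 and 0.42.

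Mael, Rnf17 and Dazl were also related. The Spearman coefficient was 0.46 for Rnf17 with Dazl, 0.44 for Mael with Rnf17 and 0.41 for Mael with Dazl, and below the gap 0.47, 0.49 and 0.40. All 9 cells with Dazl also had Rnf17, and 17 of the 18 cells with Mael did. The 6 genes did not part cleanly, since Rnf17 gave 0.40 with Tdrd12, 0.38 with Tex19.1 and 0.29 with Morc1. The other pairs across these genes ran from 0.09, for Mael with Morc1, to 0.21, for Mael with Tex19.1, and Tdrd12 with Mael gave 0.12 over 61 cells and 0.32 below the gap. On residuals after regression on genes detected, Mael with Morc1 gave 0.37, Mael with Tex19.1 0.43, Tex19.1 with Dazl 0.45 and Morc1 with Dazl 0.43 by rank, and 0.13, 0.195, 0.22 and 0.298 by Pearson's r, an alternative chosen after seeing the data. Sycp3 lay between -0.11 (with Morc1) and 0.15 (with Tex19.1) over 61 cells, and between -0.09 and 0.30 with the same genes below the gap. With Tex19.1 it gave -0.06 in plate rows A to D and 0.38 in rows E to H.

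**Figure D4:**
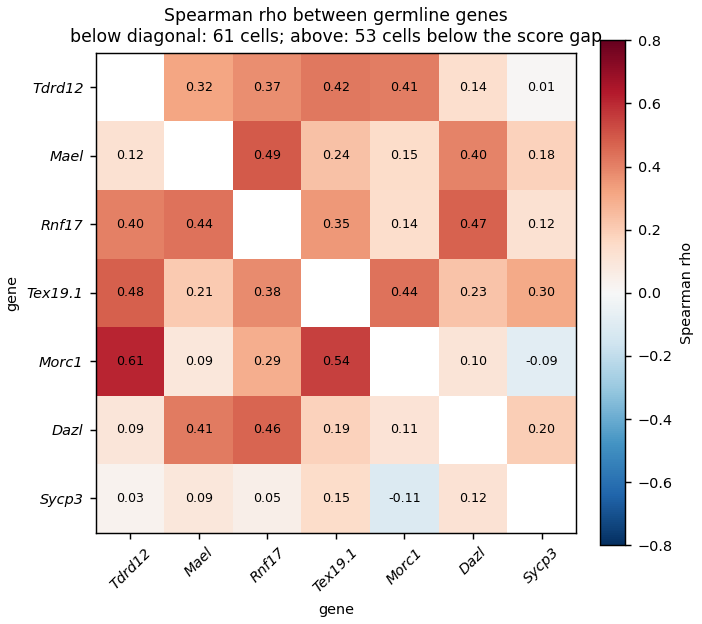
Spearman rho between the levels of each pair of the 7 germline genes, below the diagonal over 61 cells and above it over the 53 cells below the gap. The highest value over 61 cells is 0.61, for Tdrd12 with Morc1, and Sycp3 lies between -0.11 and 0.15 there. Above the diagonal Sycp3 reaches 0.30, with Tex19.1.

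Cells were ordered by a naive score, the mean standardised level of 13 measured genes of a list of 16 naive pluripotency genes. Its largest gap, 0.617 SD wide, parted 8 cells (E01, H03, C05, C07, C02, B05, H10 and D05, at 1.76 to 2.72 SD) from 53 cells at 1.15 SD or less. These sets come from the data, so their values are described and were not tested. Because the score falls into separate sets, its correlations are given within each.

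Morc1 was found in all 8 cells above the gap and in 11 of the 53 below it, with a lowest, median and highest level of 3.67, 211.8 and 780.9 CPM above the gap and of 0, 0 and 716.0 CPM below it. Tdrd12 was found in 7 of 8 cells above and 12 of 53 below, at 0, 138.4 and 402.3 CPM above and 0, 0 and 400.3 CPM below. The ranges overlap for both genes, since single cells below the gap were nearly as high as the highest above it.

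Tex19.1 was found in 6 of 8 cells above and 16 of 53 below, and Rnf17 in 7 of 8 above and 32 of 53 below, with medians of 14.3 CPM above and 0 CPM below for Tex19.1, and of 68.6 CPM above and 2.61 CPM below for Rnf17. Their highest cells were at 502.9 CPM above and 304.4 CPM below for Tex19.1, and at 1032 CPM above and 1257 CPM below for Rnf17, so both overlap. Mael was found in 2 of 8 above and 16 of 53 below, Dazl in 1 of 8 above and 8 of 53 below, and Sycp3 in 4 of 8 above and 34 of 53 below. For Mael and Sycp3 the highest cells lay below the gap, at 107 CPM above and 293.3 CPM below for Mael and at 181 CPM above and 403.3 CPM below for Sycp3. The high cells below the gap include B10, at 1.15 SD, with Rnf17 at 1257 and Morc1 at 716.0 CPM, and B09, at 1.14 SD, with Tdrd12 at 400.3 and Tex19.1 at 304.4 CPM. B10 had the fewest genes detected, 5317.

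**Figure D5:**
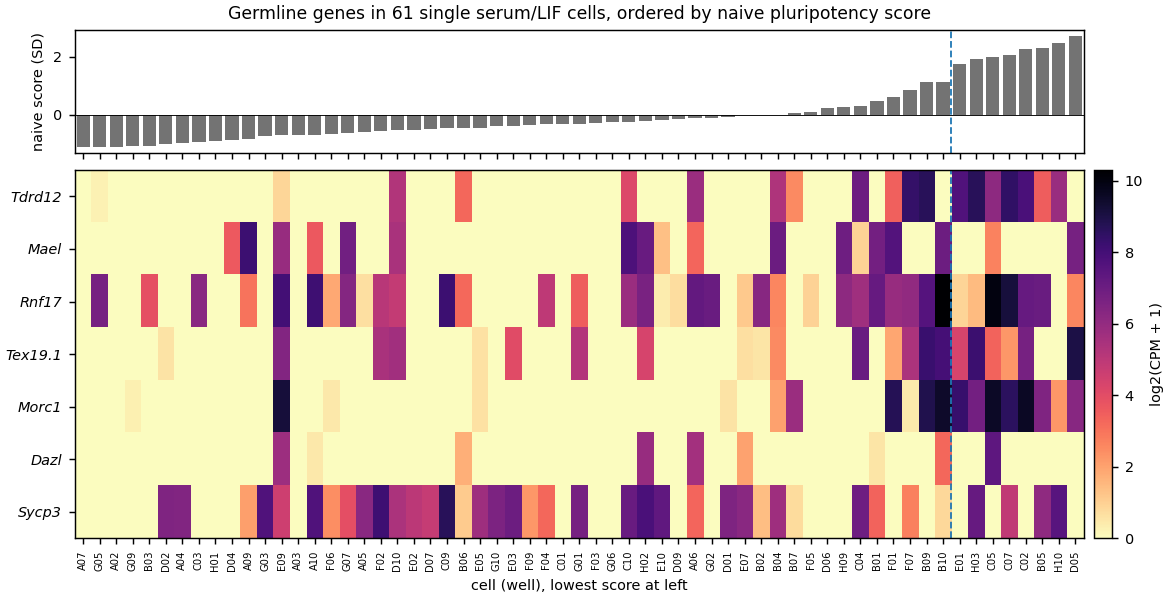
Level of the 7 germline genes as log2(CPM + 1) in 61 cells ordered by naive score, with the score in SD as bars on top and a dashed line at the gap between 53 and 8 cells. Morc1 is present in all 8 cells beyond the gap, while Mael is present in 2 of them.

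Over all 61 cells, 4 of the 7 genes (Tdrd12, Rnf17, Tex19.1 and Morc1) reached a rho of 0.3 with the score, against 4.78% of tested genes. The same number, 4, reached it in the 53 cells below the gap, against 3.76% of tested genes, but this count rests on few cells and on the score. It was 1 (Tex19.1) without F01, the 1 cell below the gap that was low in chromosome 14 counts, 1 (Tdrd12) without the cells with the most and the fewest genes detected, 0 in plate rows E to H and 0 with a score of 5 naive genes. In the 53 cells rho was 0.35 for Tex19.1, 0.33 for Tdrd12, 0.31 for Morc1, 0.31 for Rnf17, 0.24 for Mael, 0.18 for Dazl and 0.02 for Sycp3. In the 8 cells above the gap it was -0.71 for Tdrd12 and -0.55 for Morc1, and between -0.25 and 0.33 for the others.

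Other measures of the cells moved with some of these genes. The Spearman coefficient with the number of genes detected was -0.39 for Morc1 and -0.15 to 0.14 for the others. The Spearman coefficient with the share of counts from chromosome 14 was -0.57 for Tdrd12, -0.56 for Morc1 and -0.42 for Tex19.1, none of which lies on it, and 4 of the 5 cells with low chromosome 14 counts were above the gap. Without those 5 cells, Tdrd12 with Morc1 gave 0.49, and below the gap Tdrd12 gave 0.29, Rnf17 0.29, Morc1 0.26 and Tex19.1 0.32 with the score. By plate rows below the gap, the well names give 0.46 in rows A to D and 0.10 in rows E to H for Tdrd12, and 0.56 in rows A to D and -0.07 in rows E to H for Morc1. Tex19.1 gave 0.43 in rows A to D and 0.19 in rows E to H, and Rnf17 0.40 and 0.21. Tdrd12 with Morc1 gave 0.53 over the 33 cells of rows A to D and 0.75 over the 28 of rows E to H. The part of these measures in the relations was not tested.

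Genes of the DNA methylation machinery were set against the mean standardised level of the 6 germline genes that passed the limit. Of 9 measured genes in a list of 10, 4 had a rho of at least 0.3, against 5.21% of tested genes, and 0 had one of -0.3 or less, against 7.58%. These were Dnmt3l (0.62), Tet1 (0.56) and Tet2 (0.37), where both Tet genes encode enzymes that oxidise methylated cytosine, and Hells (0.36), a chromatin remodeller that methylation depends on. In the 53 cells below the gap the values were 0.59, 0.43, 0.18 and 0.35. The other measured genes of the list stayed below 0.3 over all cells. Dnmt1, the maintenance methyltransferase, gave 0.10 and its partner Uhrf1 0.01. Dnmt3b, an enzyme of new DNA methylation, gave 0.22, Dnmt3a 0.045 and Tdg 0.049.

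Dnmt3l was found in 28 cells and its rho was 0.58 with Tdrd12, 0.54 with Tex19.1, 0.48 with Rnf17, 0.47 with Morc1, 0.38 with Mael, 0.29 with Dazl and -0.05 with Sycp3. Hells had counts in all 61 cells.

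Among repressors of germline genes, chiefly the Polycomb complex PRC1.6 and its partners, 5 of 19 measured genes of a list of 20 had a rho of at least 0.3 with the same score, against 5.21% of tested genes, and 1 had one of -0.3 or less, against 7.58%, a share near the background. L3mbtl2 (0.49) and Pcgf6 (0.38), subunits of PRC1.6, were among the 5, with Cbx1 (0.36), Wdr5 (0.35) and Trim28 (0.30), and Yaf2 gave -0.51. Below the gap 2 of the 19 reached 0.3, against 4.47% of tested genes, and 1 was at -0.3 or less, against 4.64%. The values there were 0.41 for L3mbtl2, 0.34 for Pcgf6, 0.29 for Cbx1, 0.17 for Wdr5, 0.14 for Trim28 and -0.37 for Yaf2. With Sycp3 left out of the score, 4 were at 0.3 or more, against 5.07% of tested genes, and 2 at -0.3 or less, against 7.59%. Wdr5 (0.26) and Trim28 (0.298) dropped out, Setdb1 (0.31) came in and Hdac1 gave -0.32. E2f6, which encodes a DNA-binding subunit, was found in 36 cells and gave -0.06, and Mga gave 0.13. Cbx1, Cbx3, Hdac1, Setdb1 and Trim28 had counts in all 61 cells.

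Most other germline genes were rarer. Of 49 such genes, 24 were in 5 cells or fewer, and Tdrd6, Asz1, Nanos2 and Rhox6 were at 0. Of the 14 that passed the limit, 4 had a rho of at least 0.3 with the score of the germline panel, against 5.21% of tested genes, and 0 had one of -0.3 or less, against 7.58%, and below the gap 5 reached 0.3, against 4.47%. The 4 were Rhox13 (0.46, 12 cells), Zcwpw1 (0.45, 36 cells), Syce1 (0.44, 13 cells), which like Sycp3 belongs to the synaptonemal complex, and Stk31 (0.35, 11 cells). The same shares of tested genes apply to the lists that follow. Of the naive list 7 of 13 reached 0.3, namely Dppa5a (0.67), Zfp42 (0.56), Klf2 (0.52), Esrrb (0.50), Fgf4 (0.43), Nr5a2 (0.40) and Nr0b1 (0.37). Below the gap 4 of the 13 did, with 0.27 for Esrrb, 0.14 for Nr5a2 and 0.198 for Nr0b1. Of 5 embryonic stem cell markers 4 did over all cells and 4 below the gap, Utf1 (0.52), Dppa4 (0.52), Sox2 (0.47) and Sall4 (0.43), and of 4 measured germ cell specification genes 1 did, Kit (0.34, and 0.14 below the gap). Of 3 measured mesendoderm markers, 2 had a rho of -0.3 or less, T (-0.48, and -0.38 below the gap) and Mixl1 (-0.36, and -0.29 below the gap). Markers of primordial germ cells had 0 of 4 past either limit, and their summed level had a lowest, median and highest of 0, 55.3 and 567 CPM.

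The genes whose levels followed each germline gene most closely over 61 cells differed. Each is among the 5 highest of 10862 tested genes, so its value is high by selection. For Tdrd12 they were Tdh (0.72), the threonine dehydrogenase of mouse embryonic stem cells, with the antisense gene Gm17232 that overlaps it, Gm13929, Rpl10l (0.71) and Zfp978. For Morc1 they were Rpl39l (0.74), 4930548H24Rik, Rpl10l (0.70), Platr3 and Platr20. Tex19.1 had Cks2 (0.60), Gm21411, Sox2 (0.58), Platr20 and Zfp990, so Platr20 was shared with Morc1. Within the set below the gap, Tdh gave 0.64 and Rpl10l 0.66 with Tdrd12. Rpl39l gave 0.50 and Rpl10l 0.49 with Morc1 there, and Cks2 0.56 and Sox2 0.55 with Tex19.1.

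Rnf17 and Mael shared ENSMUSG00000071295 (0.54 and 0.61) and Zfp640 (0.52 and 0.53). The others were Gm13212, Gm13147 and Zfp534 for Rnf17, and Gm10451, Nup37 and Taf9 for Mael. Dazl had Lyar (0.51), Fchsd2, Zmiz2, Cox19 and Pcsk1n, and Sycp3 had Chpt1 (0.88), Frem2 (0.48), Pmaip1, Dnaaf2 and Ctdnep1. Within the set below the gap, ENSMUSG00000071295 gave 0.54 with Rnf17 and 0.66 with Mael. Lyar gave 0.49 with Dazl there, and Chpt1 0.88 and Frem2 0.44 with Sycp3.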

How the data were processed

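RNA of 61 single cells was measured by G&T-seq. The authors deposited read counts per gene, which are not normalized. The GRCm38 build, bedtools 2.19.1, SAMtools 0.1.18, GSNAP and DESeq2 are named, per the submitters' processing notes. For the counting rule and strand use, the sources used here give nothing. A second table that the authors deposited holds a normalized signal of 21255 genes. It enters no result, because its ratio to the counts, rounded to 4 decimals, took 61 distinct values within any 1 cell. The 95 spike-in rows were left out of 36300 rows.

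Counts were scaled to CPM with TMM (edgeR 4.0.16, R 4.3.3), and log2(CPM + 1) was used. DESeq2 1.42.0 size factors, total counts and thinning to the lowest total were alternatives. Tested genes had at least 10 counts in at least 10 cells. Correlations are Spearman's rho, computed over cells from ranks (pandas 2.3.3, NumPy 2.4.6) and given without p-values. The calculation was checked against SciPy 1.17.1 on simulated counts, whose zeros were not matched to those of the 7 genes. Gene positions are from GENCODE M21. Named were the 7 genes, the 5 genes nearest to each by rho, and from each list those at a rho of 0.3 or more in either direction, at 0 or in all cells; others were named after their values were seen. The genes and lists were chosen with earlier results of these data known.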

Additional observations from a re-analysis of the deposited data

How the results depend on the processing

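The labels name no separate cultures and reads carry no molecular identifiers, so the values describe these cells only. Of the summary values recomputed, 38 kept their size and 13 moved, and of the values for single genes and pairs 287 kept theirs, 48 moved and 1 reversed. The median rho over pairs, 0.19, was 0.43 on residuals after regression on genes detected, where ranking orders the cells at 0 by the fitted term, and 0.22 with Pearson's r of the residuals. It was 0.38 without Sycp3, an alternative chosen after seeing the data. The 4 genes at a rho of 0.3 with the naive score became 1 in plate rows E to H and 2 with a score of 5 genes. The 4 below the gap became 0 in rows E to H, 0 with that score, 1 without the cell low in chromosome 14 counts and 1 without the cells with the most and fewest genes detected, and the cause was not tested. Below the gap, added after seeing the data, 2 repressors in place of 5 and 4 naive genes in place of 7 were at 0.3 with the germline score. In rows E to H below the gap, Morc1 reversed to -0.0688. With no filter, the background share was 3.04% in place of 4.78%, and 6 other germline genes reached 0.3 with the naive score in place of 2, since more genes were tested. The median CpG ratio was 0.884 in the 100 bases around the start, against 0.666 in the whole window. No median over all windows was taken for the 100 bases, so 0.884 cannot be set against 0.384. No paired analysis was possible because 1 group had values. Thinned to the lowest total, Tex19.1 was found in 21 cells in place of 22 and Morc1 in 18 in place of 19. The other genes were found in as many cells as before. A gene at 0 may still have been missed at this depth or before sequencing, which was not tested.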

Other observations

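The genes nearest to the score of the germline panel, the mean standardised level of 6 genes without Dazl, lay together on chromosome 4. Rex2 (rho 0.76), Zfp978 (0.76), Zfp534 (0.74), Gm21411 (0.74) and Gm13147 (0.73) lie between 146892406 and 147702553 on GRCm38. A stretch of 3 Mb around them, chosen after the values were seen, held 37 tested genes. Of these, 26 had a rho of at least 0.3 with the same score, against 5.21% of all tested genes, and the median was 0.49. The 5 genes named above are among the 26 and set the stretch, so this share is high in part by selection. In the 53 cells below the gap, 25 reached 0.3, against 4.47% of all tested genes, with a median of 0.43. The same genes also followed the naive score below the gap, at 0.61 for Rex2, 0.62 for Gm21411, 0.598 for Zfp534, 0.53 for Zfp978 and 0.51 for Gm13147. Many of them are zinc finger genes with near-identical copies, so their counts are uncertain and the genes are not independent of each other.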
